A study of Homo sapiens with 4 samples.

Results

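Cholesterol and fatty acid synthesis was followed in 31 genes, listed by name from textbook pathway membership. The list was chosen with earlier results of these data known. All 31 genes were among the 37450 features of the count table. They were 18 enzymes of the sterol branch, 7 enzymes of the fatty acid branch, and 6 genes that regulate the pathway or handle its product. Messenger RNA was measured by stranded sequencing in 143B cells, an established human osteosarcoma line grown in medium with fetal bovine serum, on day 2 after lipid-based transfection of siRNA. The siCBX3 group (labelled CBX3 knockdown, 2 libraries) received siRNA against CBX3, the gene of the chromatin protein HP1γ, and the siNC group (labelled WT, 2 libraries) received siRNA without a target gene. Both groups therefore went through transfection, and how many siRNAs were used is not stated in the labels. The labels do not say that the libraries of a group came from separate cultures, so a p-value here reflects the spread among these libraries, and part or all of that spread can be technical.

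Cells make cholesterol from acetyl-CoA through mevalonate, farnesyl diphosphate, squalene and lanosterol. Fatty acids are made from the same acetyl-CoA through malonyl-CoA and palmitate, which is then elongated and desaturated. Genes of both branches are known targets of the SREBP transcription factors, whose membrane-bound precursors are carried to the Golgi by SCAP when sterols are scarce and are held in the endoplasmic reticulum by INSIG proteins when sterols are plentiful. SREBPs are known to act together with the factors NF-Y and Sp1 at promoters.

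The promoters below belong to some of the members with clear changes and to the gene of SREBP-2 itself. They are a choice, and those of other members that also changed, such as ELOVL6, FADS1, ACACA, SC5D and SREBF1, are not shown. Each is the 200 bases before the RefSeq transcript start (GRCh38.p14), written 5′ to 3′ on the strand of the gene. In MVD and DHCR7, capitals mark CCAAT (the NF-Y box) and GGGCGG (the Sp1 box) on either strand. In NSDHL they mark CCAAT only, because its window holds no GGGCGG. In INSIG1 capitals mark CCAAT and the E box TCACGTGA, and in SREBF2 they mark CCAAT and the sterol element TCACCCCAC. DHCR7 has 2 windows in RefSeq and the first listed is shown.
MVD, chr16:88663092-88663291, minus strand: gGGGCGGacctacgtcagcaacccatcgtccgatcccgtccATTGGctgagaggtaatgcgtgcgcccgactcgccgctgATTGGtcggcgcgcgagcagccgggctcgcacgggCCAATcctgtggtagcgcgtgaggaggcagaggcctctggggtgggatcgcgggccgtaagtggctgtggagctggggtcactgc
DHCR7, chr11:71448394-71448593, minus strand: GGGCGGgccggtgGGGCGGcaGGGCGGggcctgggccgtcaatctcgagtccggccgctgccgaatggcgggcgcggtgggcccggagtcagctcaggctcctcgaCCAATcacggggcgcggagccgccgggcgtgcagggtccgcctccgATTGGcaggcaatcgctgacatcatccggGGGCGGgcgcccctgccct
NSDHL, chrX:152830863-152831062, plus strand: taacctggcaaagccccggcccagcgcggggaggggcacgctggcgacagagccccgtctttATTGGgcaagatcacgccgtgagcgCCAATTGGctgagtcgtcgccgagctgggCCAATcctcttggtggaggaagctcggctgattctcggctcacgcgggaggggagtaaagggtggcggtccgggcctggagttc
INSIG1, chr7:155297678-155297877, plus strand: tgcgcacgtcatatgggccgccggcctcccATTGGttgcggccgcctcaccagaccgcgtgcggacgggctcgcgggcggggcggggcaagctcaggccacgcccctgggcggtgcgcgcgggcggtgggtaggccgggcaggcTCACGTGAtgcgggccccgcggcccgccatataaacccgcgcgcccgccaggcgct
SREBF2, chr22:41832905-41833104, plus strand: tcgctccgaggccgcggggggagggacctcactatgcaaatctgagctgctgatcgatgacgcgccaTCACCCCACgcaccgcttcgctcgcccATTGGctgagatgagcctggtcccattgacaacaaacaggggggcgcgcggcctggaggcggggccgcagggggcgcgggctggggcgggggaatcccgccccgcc

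Of the 31 members, 26 matched a RefSeq promoter window of 300 bases, 250 before the start and 50 from it on, and ACAT2, FDFT1, SQLE, CYP46A1 and FASN are named only. CCAAT, on either strand, was found in 20 of the 26 members, 13 of 15 in the sterol branch and 4 of 6 in the fatty acid branch. By window, 24 of 35 member windows (68.6%) held it, against 34.3% of 16751 windows of tested genes and 34.6% of all 34796 windows. GGGCGG was found in 88.6% of member windows, against 63.4% of windows of tested genes and 44.9% of all windows. The sterol element TCACCCCAC was found in 1 member, SREBF2, in 0.4% of windows of tested genes and in 0.422% of all windows. TCACNCCAC, the same element with 1 base open, added no other member. It was found in 1.06% of windows of tested genes and 1.12% of all windows. Other spellings of the element were not searched, so the search cannot say which members lack a sterol element. INSIG1 was the single member with TCACGTGA. That E box was in 2.86% of member windows, 1.49% of windows of tested genes and 0.983% of all windows. CACGTG, its 6 inner bases (any TCACGTGA match contains it), was found in 4 members. By window, 14.3% of member windows held CACGTG, against 9.07% of windows of tested genes and 7.2% of all windows. A match is a description of the letters and not of binding. CCAAT was found in members that were higher with siCBX3, such as MVD, and in members that were lower, such as DHCR7. The windows of PMVK, CYP51A1, SREBF1, SCAP, ELOVL6 and FADS1 held no CCAAT. Of these, SREBF1 and FADS1 were higher and SCAP and ELOVL6 lower.

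**Figure D1:**
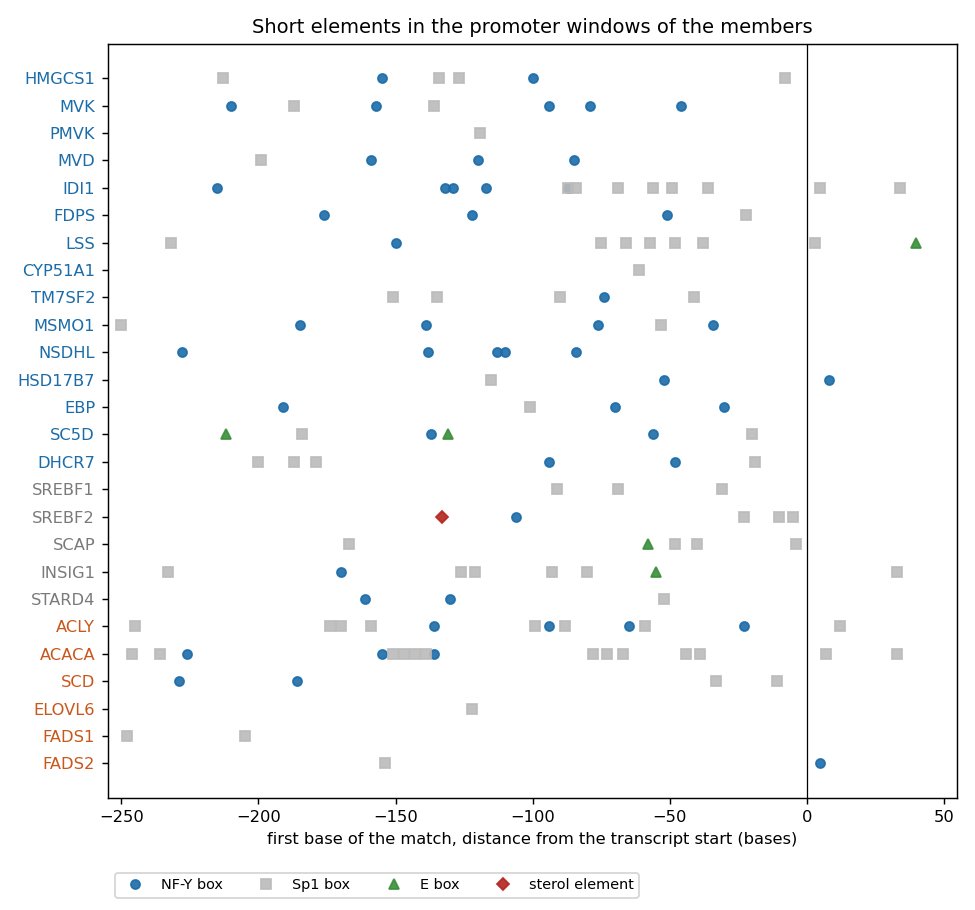
Positions of short elements in the promoter windows of 26 members, with the first base of each match on the x axis in bases from the transcript start (0), on either strand, and all windows of a gene on 1 row. Blue circles are NF-Y boxes, grey squares Sp1 boxes, green triangles E boxes and the red diamond the sterol element, and the names are blue for sterol, grey for regulator and orange for fatty acid genes. NF-Y boxes occur in 20 of the 26 members and the exact sterol element TCACCCCAC, the only spelling drawn, in SREBF2.

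Libraries held between 36509298 and 40336907 counts. CBX3 had 57.3 and 57.1 CPM in siCBX3, against 539 and 508 CPM in siNC (a log2 fold change of -3.19 with an adjusted p of 2.73e-20 in edgeR). CPM is the library-size-scaled count after TMM. RPKM is the deposited value, the count divided by the library total and the gene length, without TMM. Levels of different genes are compared by RPKM only. The mesenchymal list had a summed RPKM of 655 to 663 in siCBX3 and 249 to 259 in siNC, mostly from VIM and SPARC. CD44 of that list did not rise, with 38.7 and 40.4 RPKM in siCBX3, against 44.0 and 41.2 in siNC. COL1A1 had 1.8 and 1.81 RPKM in siCBX3 and 1.39 and 1.43 in siNC. COL1A2, THY1 and the bone genes RUNX2 and ALPL were below 1 RPKM in every library. The epithelial list summed to 182 to 191 RPKM in siCBX3 and 315 to 326 in siNC, nearly all from the keratin genes KRT8 and KRT18. The leukocyte, endothelial, hepatocyte and adipocyte lists summed to no more than 1.41 RPKM in any library, and their part in the results was not tested. Fewer cells that express a gene and less RNA per cell cannot be told apart in these bulk samples.

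Lipid synthesis genes moved in both directions with siCBX3, and the median fold changes of the branches had opposite signs. All 31 members passed the filter on low counts and were tested. With an adjusted p under 0.05 (edgeR quasi-likelihood test), 17 members changed (54.8%), against a background of 48.4% of the 20999 genes tested. Among them 8 were higher (25.8%, background 24.4%) and 9 lower (29.0%, background 24.0%). These shares are near the background, so the number of changed members does not set the pathway apart. The median log2 fold change was -0.02 over the members and -0.0058 over all tested genes. The median absolute log2 fold change was 0.25 over the members and 0.387 over all tested genes, and 1 member, CYP46A1, passed an absolute value of 1. CPM did not overlap between the groups in 26 members (12 above and 14 below in siCBX3), and 73.9% of all tested genes did not overlap either.

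In the sterol branch 2 of 18 members rose (11.1%, against 24.4% of all tested genes) and 5 fell (27.8%, near the 24.0% of all tested genes), with a median log2 fold change of -0.13. In the fatty acid branch 4 of 7 rose (57.1%) and 1 fell (14.3%), with a median of 0.26. No test of the difference between the branches was made, since the members are not replicates and the design has 2 libraries a group. Summed over the fatty acid branch, RPKM was 179 and 181 in siCBX3, against 159 and 170.2 in siNC. Over the sterol branch the sum was 140.3 and 143.5 RPKM in siCBX3, against 160.6 and 167 RPKM in siNC. The siCBX3 libraries were thus the higher pair in one branch and the lower pair in the other, and the sums did not overlap in either. For single genes, CPM did not overlap in 73.9% of all tested genes. A sum also weighs abundant genes most, such as NSDHL in the sterol branch (24.8 RPKM in siCBX3, 34.1 RPKM in siNC). The counts in each direction depend on the scaling and the method. Over all tested genes, too, fewer were called higher with library totals and on log2(RPKM + 1). Over all 31 members 7 were higher and 11 lower with library totals in edgeR, and 4 higher and 10 lower on log2(RPKM + 1) in limma. Over all tested genes 4243 were higher and 5917 lower with library totals, and 3584 higher and 5013 lower on log2(RPKM + 1). By branch, library totals gave 3 fatty acid members higher and 1 lower, and 2 sterol members higher and 7 lower. On log2(RPKM + 1), which also changes the test to limma, 2 fatty acid members were higher and 1 lower. There 1 sterol member was higher and 6 lower.

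**Figure D2:**
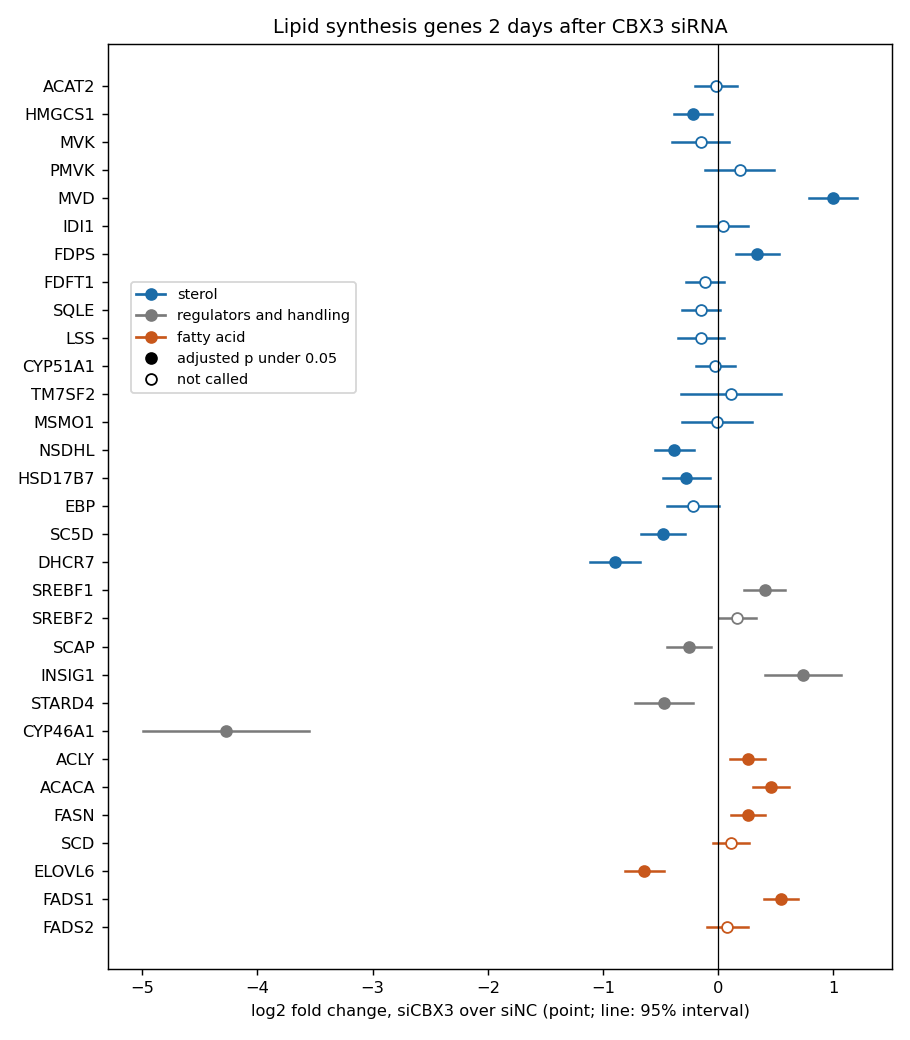
Log2 fold change, siCBX3 over siNC, of the 31 members in pathway order from the edgeR fit, with 95% intervals as lines. Blue is the sterol branch, grey the regulators and handling genes, orange the fatty acid branch, and filled points have an adjusted p under 0.05. The 3 genes of fatty acid synthesis lie right of 0, the steps from squalene to cholesterol lie left of 0 except TM7SF2 (0.11), and CYP46A1 stands far left at -4.27.

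The first part of the sterol branch, from acetyl-CoA to farnesyl diphosphate, rose in 2 of 7 members (28.6%, background 24.4%) and fell in 1 (14.3%, background 24.0%). MVD, the decarboxylase that makes isopentenyl diphosphate (chromosome 16, 88651935 to 88663161, minus strand, GRCh38, as all positions of genes), had 25.96 and 26.65 CPM in siCBX3, against 12.5 and 13.8 CPM in siNC. Both siCBX3 libraries stood far above both siNC libraries, a 1.99-fold rise (log2 fold change 0.99, SE 0.10, adjusted p 1.32e-08, edgeR). It was the largest rise among the 31 members. FDPS, which makes farnesyl diphosphate, had 36.3 and 38.7 CPM in siCBX3, against 27.8 and 31.45 CPM in siNC. The groups did not overlap, and FDPS rose 1.27-fold (log2 fold change 0.34, SE 0.09, adjusted p 0.00307, edgeR), a call that ended on log2(RPKM + 1) (adjusted p 0.0939, limma). FDPS shares 18.6% of its exon bases with RUSC1-AS1 on the opposite strand, which had a log2 fold change of 0.17 (adjusted p 0.247, edgeR).

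HMGCS1, which makes HMG-CoA, had 49.9 and 50.1 CPM in siCBX3, against 61.0 and 55.5 CPM in siNC. The siCBX3 libraries were both lower, and HMGCS1 fell by 0.22 on the log2 scale (SE 0.08, adjusted p 0.0287, edgeR). That call ended without siCBX3 replicate 1 (adjusted p 0.134), siCBX3 replicate 2 (0.132) or siNC replicate 1 (0.191), with DESeq2 (0.0596) and with no filter (0.0607). HMGCS1 shares 703 of its 4702 exon bases with CTD-2636A23.2. The other four genes of these steps, ACAT2, MVK, PMVK and IDI1, did not pass the test, with log2 fold changes between -0.15 (MVK) and 0.19 (PMVK). The 95% interval was -0.40 to 0.09 for the mevalonate kinase MVK, -0.12 to 0.49 for the phosphomevalonate kinase PMVK and -0.18 to 0.25 for the isomerase IDI1. For ACAT2, the thiolase that joins acetyl-CoA units, it was -0.20 to 0.17. ACAT2 shares 43.0% of its exon bases with SOD2 on the opposite strand, which rose by 3.44 on the log2 scale, and 9.23% with TCP1, which fell by 0.91. ACAT2 had 1569 and 1720 counts in siCBX3 and 1564 and 2085 in siNC. SOD2 had 13813 and 15646 counts in siCBX3 and 1334 and 1621 in siNC. Whether the ACAT2 counts include reads of either gene was not tested.

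No member between squalene and cholesterol rose (background 24.4%), and 4 of the 11 fell (36.4%, background 24.0%). The share called in either direction was thus 36.4%, below the 48.4% of all tested genes. DHCR7, the reductase of the last step to cholesterol (chromosome 11, 71428193 to 71452868, minus strand), had 12.85 and 12.85 CPM in siCBX3, against 25.6 and 22.3 CPM in siNC. The groups were well apart, and DHCR7 fell 1.86-fold (log2 fold change -0.90, SE 0.10, adjusted p 1.39e-07, edgeR), further than any other of the 18 sterol members. SC5D, the desaturase one step before it, had 30.6 and 32.2 CPM in siCBX3, against 47.2 and 40.3 CPM in siNC. It also fell without overlap between the groups (log2 fold change -0.48, SE 0.09, adjusted p 0.000111, edgeR). Neither DHCR7 nor SC5D shares exon bases with another feature, and both kept their calls in each of the 11 alternatives.

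NSDHL and HSD17B7 work in the removal of methyl groups from the sterol ring. NSDHL had 52.6 and 49.15 CPM in siCBX3, against 68.9 and 63.6 CPM in siNC. At 24.8 RPKM in siCBX3 and 34.1 RPKM in siNC it was the most abundant of the 18 sterol members per length, and it fell by 0.38 on the log2 scale (SE 0.08, adjusted p 0.000417, edgeR). HSD17B7 had 17.4 and 18.4 CPM in siCBX3, against 22.6 and 20.9 CPM in siNC. Its groups did not overlap and it fell by 0.28 on the log2 scale (SE 0.10, adjusted p 0.0232, edgeR). This call ended without siCBX3 replicate 1 (0.160), siCBX3 replicate 2 (0.0537) or siNC replicate 1 (0.125), with DESeq2 (0.0724) and with no filter (0.0518). The pseudogene HSD17B7P2, a separate feature, had 64 and 60 counts in siCBX3 and 55 and 44 in siNC, up to 10.4% of the HSD17B7 count. MSMO1, which oxidises the same methyl groups, was at 6.04 and 5.99 CPM in siCBX3 and 6.40 and 5.74 CPM in siNC, overlapping groups with a 95% interval of -0.32 to 0.30.

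The other members of these steps had intervals that included 0. SQLE, the epoxidase often named as a rate-limiting step after mevalonate, had 54.9 and 55.1 CPM in siCBX3, against 59.3 and 62.9 CPM in siNC (log2 fold change -0.15, 95% interval -0.32 to 0.01, adjusted p 0.119, edgeR). EBP, the sterol isomerase, had 12.5 and 12.9 CPM in siCBX3, against 14.8 and 14.8 CPM in siNC (log2 fold change -0.22, 95% interval -0.44 to 0.01, adjusted p 0.102, edgeR). Both were lower in both siCBX3 libraries without passing the test, and both passed it with library totals in place of TMM (adjusted p 0.0246 for SQLE and 0.0301 for EBP). EBP also passed on log2(RPKM + 1) (0.0373, limma). The squalene synthase FDFT1 had 65.6 and 66.1 CPM in siCBX3, against 66.8 and 75.7 CPM in siNC (log2 fold change -0.11), passing only without siNC replicate 1 (adjusted p 0.0496, edgeR). The lanosterol synthase LSS had 24.9 and 21.5 CPM in siCBX3, against 26.1 and 25.3 CPM in siNC (log2 fold change -0.15, 95% interval -0.35 to 0.05). TM7SF2, a sterol reductase, was the least abundant sterol member at 0.761 RPKM in siCBX3 and 0.744 RPKM in siNC, with a wide interval of -0.33 to 0.55. For the lanosterol demethylase CYP51A1 the log2 fold change was -0.02 (95% interval -0.19 to 0.15). CYP51A1 shares 78.8% of its exon bases with LRRD1 on the same strand, and LRRD1 had 2643 and 3034 counts in siCBX3 and 2761 and 3548 in siNC, close to the 2734 and 3144 (siCBX3) and 2852 and 3684 (siNC) of CYP51A1, so reads of the shared bases cannot be assigned to 1 gene.

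**Figure D3:**
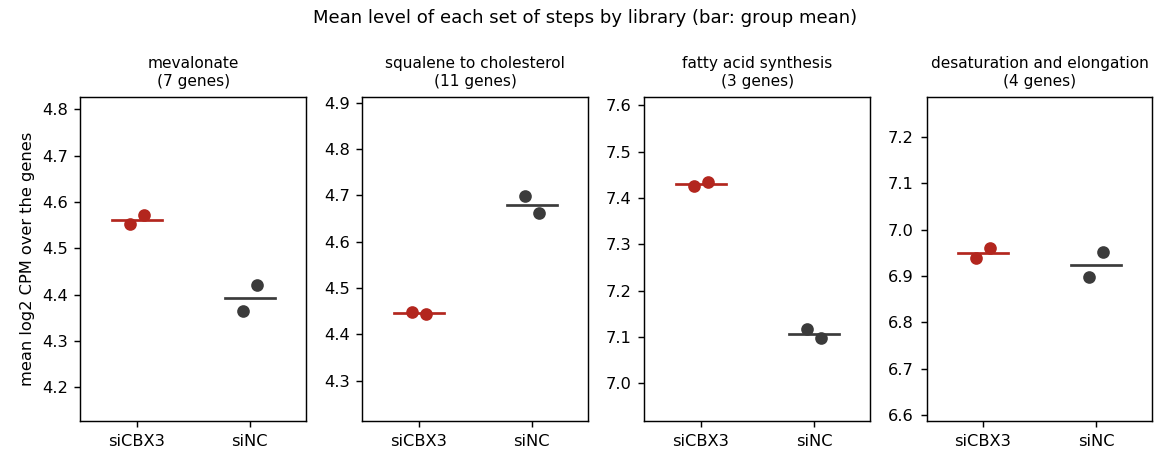
Mean log2 CPM over the genes of each set of steps in every library, with siCBX3 left and siNC right, points for libraries and bars for group means. The siCBX3 libraries lie below siNC in the steps from squalene to cholesterol (4.45 and 4.44 against 4.70 and 4.66) and above it in fatty acid synthesis (7.43 and 7.43 against 7.12 and 7.10), while in desaturation and elongation the libraries overlap.

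Averaged over the 11 genes from squalene to cholesterol, log2 CPM was 4.45 and 4.44 in siCBX3, against 4.70 and 4.66 in siNC, and leaving out DHCR7 it was 4.52 and 4.52 against 4.70 and 4.68. Over the 7 genes up to farnesyl diphosphate it was 4.55 and 4.57 in siCBX3, against 4.36 and 4.42 in siNC. Without MVD these became 4.53 and 4.54 in siCBX3, against 4.48 and 4.52 in siNC, so that the higher mean of the early steps rested mostly on MVD. These means are descriptions and carry no p-value.

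In the fatty acid branch all 3 genes of the first steps, ACLY, ACACA and FASN, and the desaturase gene FADS1 rose. ACLY, which makes cytosolic acetyl-CoA from citrate, had 197 and 199 CPM in siCBX3, against 172 and 160 CPM in siNC. ACLY rose 1.19-fold (log2 fold change 0.26, SE 0.07, adjusted p 0.00553, edgeR), though not without siCBX3 replicate 2 (adjusted p 0.0593) or on log2(RPKM + 1) (0.0572, limma). ACACA, the carboxylase that makes malonyl-CoA and commits carbon to fatty acids, had 88.9 and 93.0 CPM in siCBX3, against 66.1 and 66.3 CPM in siNC. Its groups were far apart for their spread, a 1.37-fold rise (log2 fold change 0.46, SE 0.08, adjusted p 2.4e-05, edgeR) called in each of the 11 alternatives. FASN, the synthase that builds palmitate, had 291 and 279.5 CPM in siCBX3, against 236 and 242 CPM in siNC. FASN rose 1.195-fold (log2 fold change 0.26, SE 0.07, adjusted p 0.00456, edgeR), and this call ended without siCBX3 replicate 1 (0.0968), with library totals (0.0503) and on log2(RPKM + 1) (0.0687, limma). All 3 genes of these steps were therefore higher, by between 1.19-fold and 1.37-fold.

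Enzymes that elongate and desaturate fatty acids did not move together. ELOVL6, which elongates palmitate and its relatives (chromosome 4, 110045846 to 110199199, minus strand), had 43.7 and 47.5 CPM in siCBX3, against 74.6 and 67.9 CPM in siNC. It was the one fatty acid member that fell, 1.56-fold (log2 fold change -0.64, SE 0.08, adjusted p 6.62e-07, edgeR), and it shares no exon bases with another feature. FADS1, a desaturase of polyunsaturated fatty acids (chromosome 11, 61799625 to 61829318, minus strand), had 332 and 320 CPM in siCBX3, against 223.6 and 223.8 CPM in siNC. FADS1 rose 1.46-fold (log2 fold change 0.54, SE 0.07, adjusted p 8.89e-07, edgeR), more than any other gene of the branch. Both ELOVL6 and FADS1 kept their calls in each of the 11 alternatives.

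SCD, which makes monounsaturated fatty acids, was the most abundant of the 31 members per length, at 65.8 RPKM in siCBX3 and 64.4 RPKM in siNC. In CPM it stood at 361 and 364 in siCBX3, against 316 and 356 in siNC. Both siCBX3 libraries lay above both siNC libraries, but the siNC libraries were further apart than the group means, and SCD did not pass the test (log2 fold change 0.11, 95% interval -0.04 to 0.27, adjusted p 0.236, edgeR), except without siNC replicate 2 (0.0143). FADS2, the desaturase that acts before FADS1 on polyunsaturated fatty acids, had 43.1 and 43.35 CPM in siCBX3, against 38.3 and 43.44 CPM in siNC, overlapping groups with a 95% interval of -0.10 to 0.26. FADS1 and FADS2 are neighbours on chromosome 11 in opposite directions and share 490 exon bases, 4.79% of FADS1 and 4.44% of FADS2, while FADS2 also shares 0.444% with FEN1.

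**Figure D4:**
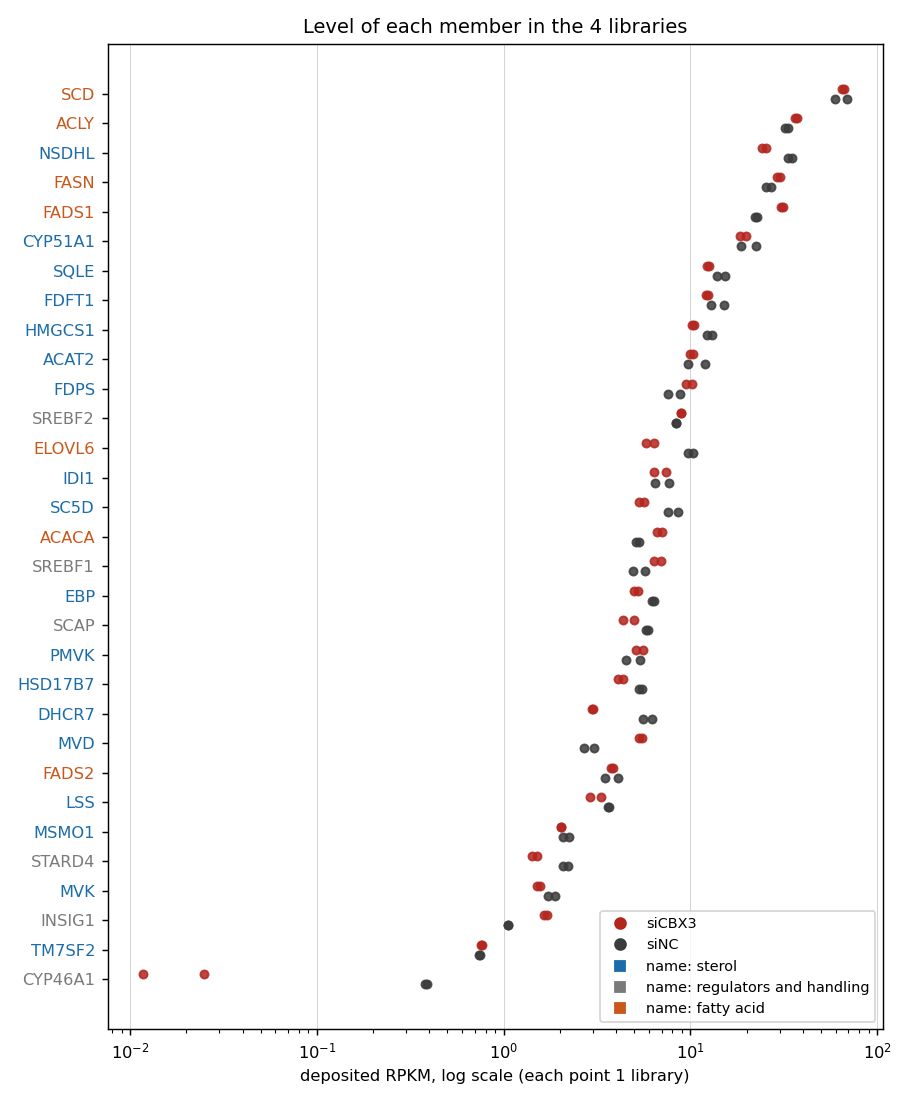
Deposited RPKM of the 31 members in the 4 libraries on a log scale, ordered by mean level, with siCBX3 (red) above siNC (dark grey) on each row and 1 point per library. The members span from SCD at about 65.8 RPKM in siCBX3 and 64.4 in siNC down to CYP46A1 at 0.0183 RPKM in siCBX3 and 0.383 in siNC, and most members shift little against that range.

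Among the regulators, INSIG1 and SREBF1 were higher and SCAP lower. INSIG1, which holds SREBP precursors in the endoplasmic reticulum and is itself a known SREBP target, had 6.21 and 6.33 CPM in siCBX3, against 3.82 and 3.70 CPM in siNC. The groups were far apart at a low level, a 1.67-fold rise (log2 fold change 0.74, SE 0.16, adjusted p 0.000462, edgeR). SREBF1, the gene of SREBP-1, had 57.6 and 52.7 CPM in siCBX3, against 39.2 and 43.9 CPM in siNC. It rose 1.32-fold (log2 fold change 0.41, SE 0.09, adjusted p 0.000367, edgeR), although not on log2(RPKM + 1) (0.0576, limma). SREBF1 shares 6.92% of its exon bases with RAI1, which rose by 0.32 on the log2 scale.

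SREBF2, the gene of SREBP-2, had 69.25 and 68.9 CPM in siCBX3, against 62.6 and 60.7 CPM in siNC. Its groups did not overlap but it did not pass the test over all genes (log2 fold change 0.16, 95% interval 0.00 to 0.32, adjusted p 0.0856, edgeR), nor in any of the 11 alternatives. SCAP, the escort of the SREBP precursors, had 32.4 and 28.1 CPM in siCBX3, against 36.9 and 35.1 CPM in siNC. The siCBX3 libraries were both lower and unequal, and SCAP fell by 0.25 on the log2 scale (SE 0.09, adjusted p 0.0257, edgeR). Without siCBX3 replicate 2 the change was -0.15 (adjusted p 0.362), and the call also ended without siNC replicate 1 (0.0821) and with DESeq2 (0.0685). RNA levels do not report the cleavage of SREBP proteins.

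Both genes that handle cholesterol fell. STARD4, a protein that carries sterols between membranes, had 8.91 and 8.23 CPM in siCBX3, against 11.7 and 12.01 CPM in siNC. It fell 1.39-fold without overlap (log2 fold change -0.47, SE 0.12, adjusted p 0.0025, edgeR). CYP46A1, the hydroxylase known for the removal of cholesterol from neurons (chromosome 14, 99684304 to 99727301, plus strand), had 4 and 9 counts in siCBX3, against 132 and 146 counts in siNC. That was 0.1135 and 0.2375 CPM in siCBX3, against 3.50 and 3.47 CPM in siNC (log2 fold change -4.27, SE 0.35, adjusted p 3.24e-10, edgeR), larger in size than the change of any other member. CYP46A1 passed the filter (minimum count 10) only through the siNC libraries, where it was high. Its p-value is thus no independent support for the fall. CYP46A1 was also the least abundant member, and of all counts from 1 to 20 in a library 74.3% to 75.6% were even numbers, so a count of 4 may stand for fewer independent fragments. The size of its fall is therefore imprecise, with a 95% interval of -4.99 to -3.55, and the log2 fold change was -3.86 without siCBX3 replicate 1 and -4.90 without siCBX3 replicate 2.

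Other lipid genes, in 7 lists, give the surroundings of these pathways. Their shares are read against the 24.4% higher and 24.0% lower among all tested genes. In the list of SREBP processing and degradation 5 of 12 rose (41.7%) and 3 fell (25.0%). C12orf49, a regulator needed for SREBP activation that is also called SPRING1, had 8.17 and 7.97 CPM in siCBX3, against 23.7 and 22.9 CPM in siNC, and fell by 1.53 on the log2 scale (adjusted p 2.47e-11, edgeR). The ubiquitin ligase gene RNF145 rose by 0.76 and RNF139, another ligase, fell by 0.54, while ERLIN2, which acts in the degradation of sterol-sensing proteins, rose by 0.45. Among other sterol and isoprenoid enzymes 3 of 15 rose and 5 fell, which is 53.3% called, against 48.4% of all tested genes. LBR, a nuclear membrane protein with the same reductase activity as TM7SF2, fell by 0.97 on the log2 scale, with 34.5 and 34.5 CPM in siCBX3, against 69.3 and 66.0 CPM in siNC. The mitochondrial thiolase ACAT1 rose by 0.83, the farnesyltransferase subunit FNTA rose by 0.45, and PDSS1 of ubiquinone synthesis, with 10.5% of its exon bases under ABI1, fell by 0.61.

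In the list of LXR factors and targets, cholesterol efflux and oxysterol enzymes 6 of 11 tested members rose (54.5%, background 24.4%) and 2 fell (18.2%, background 24.0%), with a median log2 fold change of 0.34. LXR is the receptor that is known to respond to oxidised sterols when cholesterol is abundant. The cholesterol exporter ABCA1 had 39.1 and 32.85 CPM in siCBX3, against 7.59 and 8.21 CPM in siNC, a rise of 2.18 on the log2 scale (SE 0.11, adjusted p 3.72e-14, edgeR). NR1H2, the gene of LXRβ, rose by 0.82. The members that fell, named after their values were seen, were the sterol transporter gene ABCG4 (-2.28, with 14 and 4 counts in siCBX3, against 41 and 56 counts in siNC) and the phospholipid acyltransferase gene LPCAT3 (-0.46). As for CYP46A1, the low counts of ABCG4 in siCBX3 may stand for fewer independent fragments. Genes of cholesterol uptake, transport and esterification moved both ways, with 8 of 20 tested members higher and 8 lower (40.0% each). The lipoprotein receptor gene VLDLR fell by 1.03 and SOAT1, which esterifies cholesterol, by 0.91, and the sterol transporter gene GRAMD1B rose by 0.73. VLDLR shares 7.9% of its exon bases with VLDLR-AS1.

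Fatty acid genes outside the 7 members were mixed. Of 24 tested enzymes of synthesis, elongation and activation 5 rose (20.8%, background 24.4%) and 10 fell (41.7%, background 24.0%). ME1, a source of NADPH for fatty acid synthesis, rose by 1.68 and ACSL4, which activates polyunsaturated fatty acids, rose by 0.94. HACD2, a dehydratase of elongation, fell by 1.14 and SCD5, a second stearoyl-CoA desaturase, fell by 1.18. In fatty acid oxidation 7 of 22 rose (31.8%) and 5 fell (22.7%), among them ACADVL, a dehydrogenase of long chains, at 0.93, HADHA at 0.53 and HADH at -0.85 (CPT1B, at 0.81, shares 66.4% of its exon bases with CHKB-CPT1B). In the list of triglyceride synthesis and lipid droplets 9 of 20 rose and 6 fell, which is 75.0% called, against 48.4% of all tested genes. The lipase gene MGLL rose by 1.70, the droplet coat genes PLIN2 and PLIN3 rose by 0.88 and 0.80, and LPIN2, a phosphatidate phosphatase, fell by 1.12. PLIN3 shares 17.8% of its exon bases with other features.

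**Figure D5:**
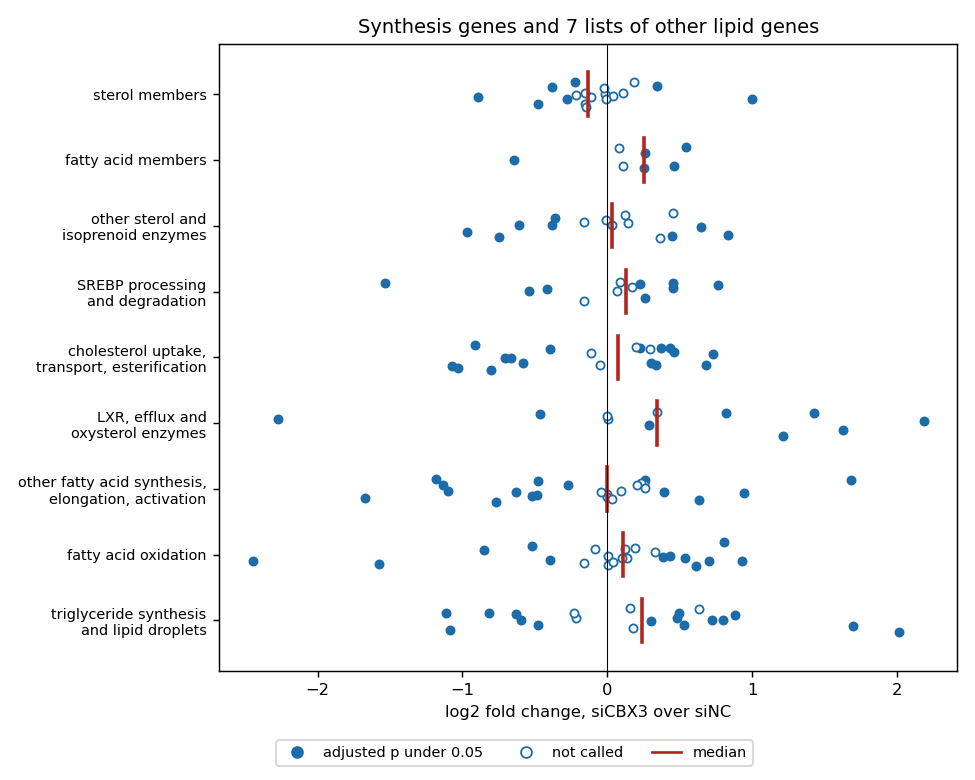
Log2 fold changes, siCBX3 over siNC, of the sterol and fatty acid members and of 7 lists of other lipid genes, with filled points for an adjusted p under 0.05 and red bars for medians. The sterol median lies at -0.13 and the fatty acid median at 0.26, and the list with LXR genes has the highest median of the 9 rows, 0.34, with points from -2.28 to 2.18.

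Of the 31 members 15 share no exon base with another feature of the table, among them 10 of the 17 called ones, and 5 share over 10% (ACAT2, HMGCS1, IDI1, FDPS and CYP51A1). IDI1 shares 17.9% with IDI2-AS1. How the counting handled strand and shared reads is not given in the sources, so counts of overlapping genes are uncertain. For CYP51A1, the opposite-strand CYP51A1-AS1 (410 shared bases) had 1 and 5 counts in siCBX3 and 16 and 11 in siNC. The same-strand LRRD1 (3211 shared bases) had 2643 and 3034 counts in siCBX3 and 2761 and 3548 in siNC. What these values say of the counting was not tested.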

How the data were processed

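Stranded mRNA libraries of 143B cells, 2 with siRNA against CBX3 and 2 with control siRNA, were compared. The submitters' processing notes list Trimmomatic 0.36, STAR 2.5.3a, featureCounts and Subread 1.5.1, and the build GRCh38, without roles or settings. The authors deposited raw counts per gene and RPKM values. Recomputing RPKM from those counts, the deposited gene lengths and the column sums gave the same values within a relative difference of 3.79e-07. Library totals are in the report, and intervals describe counting error plus the spread between the libraries.

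Counts were fitted with edgeR 4.0.16 (R 4.3.3) by its quasi-likelihood test, with filterByExpr (minimum count 10, minimum total 15), TMM factors and group as the only term, over all 20999 genes kept. The call was a Benjamini-Hochberg adjusted p under 0.05 over all genes. SE is the fold change on the log2 scale divided by the square root of F. Alternatives used DESeq2 1.42.0, limma 3.58.1 and those named in the closing section. Promoters came from RefSeq. Steps were tested on simulated data. Members and lists were chosen with earlier results of these data known. Values in every library are given for the 20 members with the smallest adjusted p, the 4 most abundant and 4 regulators, and up to 4 genes with the smallest adjusted p are named in each other list, though not every gene this rule took is reported here. Scripts used Python 3.11.15, pandas 2.3.3, scipy 1.17.1 and matplotlib 3.10.9.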

Additional observations from a re-analysis of the deposited data

How the results depend on the processing

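Of the 17 called members 10 kept their call and direction in each of the 11 alternatives, 7 lost it in at least 1, and 4 of the 14 uncalled members passed in at least 1. On log2(RPKM + 1) and log2(RPKM + 0.1) alike, 4 members were higher in place of 8, 1 sterol member in place of 2 and 2 fatty acid members in place of 4. DESeq2 and no filter each left 3 sterol members lower in place of 5. Leaving out 1 library gave 3 to 5 sterol members lower, 7 to 9 members higher and 6 to 9 lower, with 3 the count without siCBX3 replicate 1 or siCBX3 replicate 2. With the replicate block the counts stayed at 8 higher and 9 lower, and over all genes at 5371 higher and 5259 lower, against 5132 and 5041. The numbers are not stated to pair the samples, and same-numbered libraries deviated together only weakly (correlation across genes 0.0287). Some uncalled members changed sign. IDI1 had -0.039 with library totals, -0.034 on log2(RPKM + 1) and -0.038 on log2(RPKM + 0.1), and -0.108 to 0.198 with 1 library left out. With 1 library left out ACAT2 lay between -0.14 and 0.117, CYP51A1 between -0.124 and 0.087, MSMO1 between -0.086 and 0.066 and FADS2 between -0.007 and 0.177 (-0.00016 with library totals). For the other lists the same alternatives were added after the data had been seen. SREBP processing had 3 higher with library totals, 2 on log2(RPKM + 1), 3 on log2(RPKM + 0.1) and 3 to 5 with 1 library left out, the 3 without siCBX3 replicate 1. Uptake and transport had 5 higher, and other fatty acid enzymes 3, on both RPKM scales. With a mean count of at least 50, the LXR list had 1 lower and fatty acid oxidation 3. Other sterol enzymes had 3 to 5 higher with 1 library left out, the 5 without siNC replicate 1. The causes were not tested. CYP46A1, with 4 and 9 counts in siCBX3, lay between -4.90 (without siCBX3 replicate 2) and -0.44 (log2(RPKM + 1), where the added 1 shrinks changes of low genes).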
